A study of Homo sapiens with 12 samples.

Results

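The genes described are 10 of the 60651 in the deposited table, namely PSAT1, PHGDH, PSPH and SHMT2 of serine and glycine synthesis, the transcription factor ATF4, and 5 genes that ATF4 or related stress signals are known to regulate, DDIT3, ASNS, TRIB3, CHAC1 and DDIT4. They were chosen by symbol, matched through their Ensembl identifiers, and followed over all 6 conditions of 2 established human cholangiocarcinoma cell lines, EGI-1 and HUCCT1. EGI-1 cells, labelled wild type and grown in DMEM, received DMSO vehicle, 0.5 µM decitabine, 200 nM talazoparib, or both drugs at these doses, and were harvested for RNA at 72 h. HUCCT1 cells, also labelled wild type but grown in RPMI1640, received DMSO vehicle or 1 µM decitabine for the same time. Every condition was sequenced as 2 libraries, a cell line in culture has no stroma or immune cells of its own, and nothing in the labels says that the 2 libraries of a condition came from separate cultures, so the p-values measure only the spread between these libraries. The names of the EGI-1 libraries fall into 2 series, A-D and B1-B4, each holding 1 library of every EGI-1 condition. What the series stand for is not stated. The question was how an inhibitor of DNA methyltransferases and an inhibitor of PARP, alone and together, alter the cells.

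Decitabine is a cytidine analogue that is built into DNA and traps DNA methyltransferases, so that methyl groups on cytosines before guanines (CpG) are lost as cells divide. Talazoparib blocks PARP1 and PARP2 and holds them on damaged DNA. Serine is made from a glycolytic intermediate in consecutive steps by PHGDH, PSAT1 and PSPH, and mitochondrial SHMT2 then splits serine into glycine and a folate-bound carbon unit. In the integrated stress response, kinases that sense missing amino acids, unfolded proteins, heme shortage or viral RNA phosphorylate the initiation factor eIF2, which lowers general translation but raises translation of ATF4. ATF4 protein therefore need not follow ATF4 mRNA, and only mRNA was measured here. ATF4 is known to activate serine synthesis, amino acid uptake and stress effector genes.

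Total counts were between 23139065 and 33181930 in the 8 EGI-1 libraries and between 32519985 and 34965627 in the 4 HUCCT1 libraries. Epithelial markers were abundant in both lines, with KRT19 between 1461 and 3070 CPM (counts per library size, corrected by TMM) and EPCAM between 149.3 and 287.6 CPM, while the hepatocyte gene ALB had at most 3 counts in any library. KRT7, a further biliary keratin, was between 39.07 and 69.6 CPM in EGI-1 and between 4037 and 7512 CPM in HUCCT1. Listed markers also moved with decitabine in HUCCT1. COL1A1, a fibroblast marker, had 805 and 896 counts with vehicle and 5089 and 5611 with decitabine, the endothelial marker PECAM1 had 25 and 19 against 128 and 113 counts, and the epithelial cadherin CDH1 was at 302.8 and 316.8 against 529.3 and 503.1 CPM. The keratin KRT8 was at 3998 and 4040 CPM with vehicle and 2190 and 2381 with decitabine, and KRT18, KRT7 and KRT19 were also lower in both treated libraries than in both untreated ones, while COL3A1 had at most 2 counts and PTPRC at most 4 in any HUCCT1 library. The part of these marker shifts in the HUCCT1 results was not tested. Library 2 of the EGI-1 combination stood apart. There 8 T cell markers, of which PTPRC and CD53 mark leukocytes in general, summed to 40.1 CPM (by library totals, without TMM). The sums were 2.81 to 7.62 CPM in the other EGI-1 libraries and 9.5 to 17.6 CPM in the HUCCT1 libraries. All 8 were detected in library 2 of the combination. It had 381 counts of PTPRC and 148 of CD3E, against at most 7 and at most 4 in the other EGI-1 libraries. LCK made up most of the sum in the other EGI-1 libraries and in the HUCCT1 libraries, where it reached 532 counts. The results on the combination are therefore also given without its library 2, and the part of the T cell transcripts in these results was not tested.

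Sequences upstream of the genes were read from RefSeq on GRCh38.p14, where 8 of the 10 genes had windows reaching from 250 bases before a start to 50 bases after it, 13 windows in all. PSPH and SHMT2 had none. The PSAT1 window is shown because PSAT1 was at 0 counts in vehicle-treated HUCCT1, and because CpG, marked in capitals, is the sequence at which DNA methyltransferases act. Methylation was not measured in these data. The 300-base PSAT1 window held 37 CpG, more than 88.7% of all 35116 such windows, whose median was 14. The 3 TRIB3 windows held 36 to 38 CpG, and those of the other 6 genes 15 to 30, so PSAT1 was not alone in its CpG content. Of the PSAT1 CpG, 30 lie in the 250 bases before the start, chr9:78296875-78297124 on the plus strand.
PSAT1: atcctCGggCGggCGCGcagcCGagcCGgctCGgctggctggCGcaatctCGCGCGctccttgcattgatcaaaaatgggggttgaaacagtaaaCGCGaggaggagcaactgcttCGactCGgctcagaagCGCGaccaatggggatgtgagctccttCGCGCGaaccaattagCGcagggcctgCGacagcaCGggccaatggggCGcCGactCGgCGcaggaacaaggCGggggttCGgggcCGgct

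The windows of ASNS and CHAC1 are shown because they were the 2 genes of the 8 whose windows held TGATGNAA, a motif read by heterodimers of C/EBP factors with ATF4, or its reverse complement TTNCATCA. The motif is in capitals, it starts 68 bases before the ASNS start in a window on the minus strand (chr7:97872409-97872658), and 209 bases before the CHAC1 start on the strand opposite to the gene in a window on the plus strand (chr15:40953221-40953470). Of all windows, 3.62% held the motif on either strand, so the letters alone are not rare, and a match is a description and not a tested site. The second ASNS start in RefSeq had no match in its window.
ASNS: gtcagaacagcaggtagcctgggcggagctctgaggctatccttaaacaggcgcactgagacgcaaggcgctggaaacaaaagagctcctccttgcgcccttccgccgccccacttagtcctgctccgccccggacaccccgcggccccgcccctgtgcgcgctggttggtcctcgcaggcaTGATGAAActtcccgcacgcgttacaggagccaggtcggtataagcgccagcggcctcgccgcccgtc
CHAC1: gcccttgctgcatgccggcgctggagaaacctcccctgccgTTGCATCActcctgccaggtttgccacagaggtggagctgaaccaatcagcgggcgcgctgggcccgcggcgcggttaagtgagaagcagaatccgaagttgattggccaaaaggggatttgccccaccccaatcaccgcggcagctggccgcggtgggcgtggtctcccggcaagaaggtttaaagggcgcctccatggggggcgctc

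In vehicle-treated EGI-1 cells most of the 10 genes were well expressed. Levels are compared between genes only as CPM per kilobase of exon, with lengths from GENCODE 44, and are given as mean ± SD of 2 libraries. DDIT4, an inhibitor of mTORC1 signalling, was highest at 106 ± 1.2 CPM per kb, followed by ATF4 at 87.7 ± 1.5, PSAT1 at 57.4 ± 0.39, SHMT2 at 54.3 ± 2.0 and TRIB3, a pseudokinase that restrains ATF4 and AKT signalling, at 45.9 ± 1.0 CPM per kb. PHGDH was at 19.9 ± 0.30, PSPH at 8.20 ± 0.082, DDIT3 at 6.50 ± 0.43, CHAC1 at 3.01 ± 0.28 and ASNS at 0.433 ± 0.041 CPM per kb. PSAT1 and SHMT2 were the closest neighbours among the high genes, and their libraries did not overlap. PSAT1 lay above 98.4% of the 34366 genes detected in that group, whereas ASNS, asparagine synthetase, lay above only 41.6%. The order differed in HUCCT1 vehicle. There ATF4 led at 156 ± 4.6 CPM per kb before TRIB3 at 107 ± 5.5 and DDIT4 at 56.8 ± 2.1. On this scale DDIT3 at 8.29 ± 0.23 and PHGDH at 8.24 ± 0.95 did not differ there beyond their spread. The scale divides by the union of all annotated exons, 9187 bases for PHGDH, 4896 for ASNS and 1307 for DDIT3. Ranks between genes depend on these lengths. Before this division, PHGDH was at 75.7 ± 8.7 and DDIT3 at 10.8 ± 0.30 CPM in HUCCT1 vehicle.

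**Figure D1:**
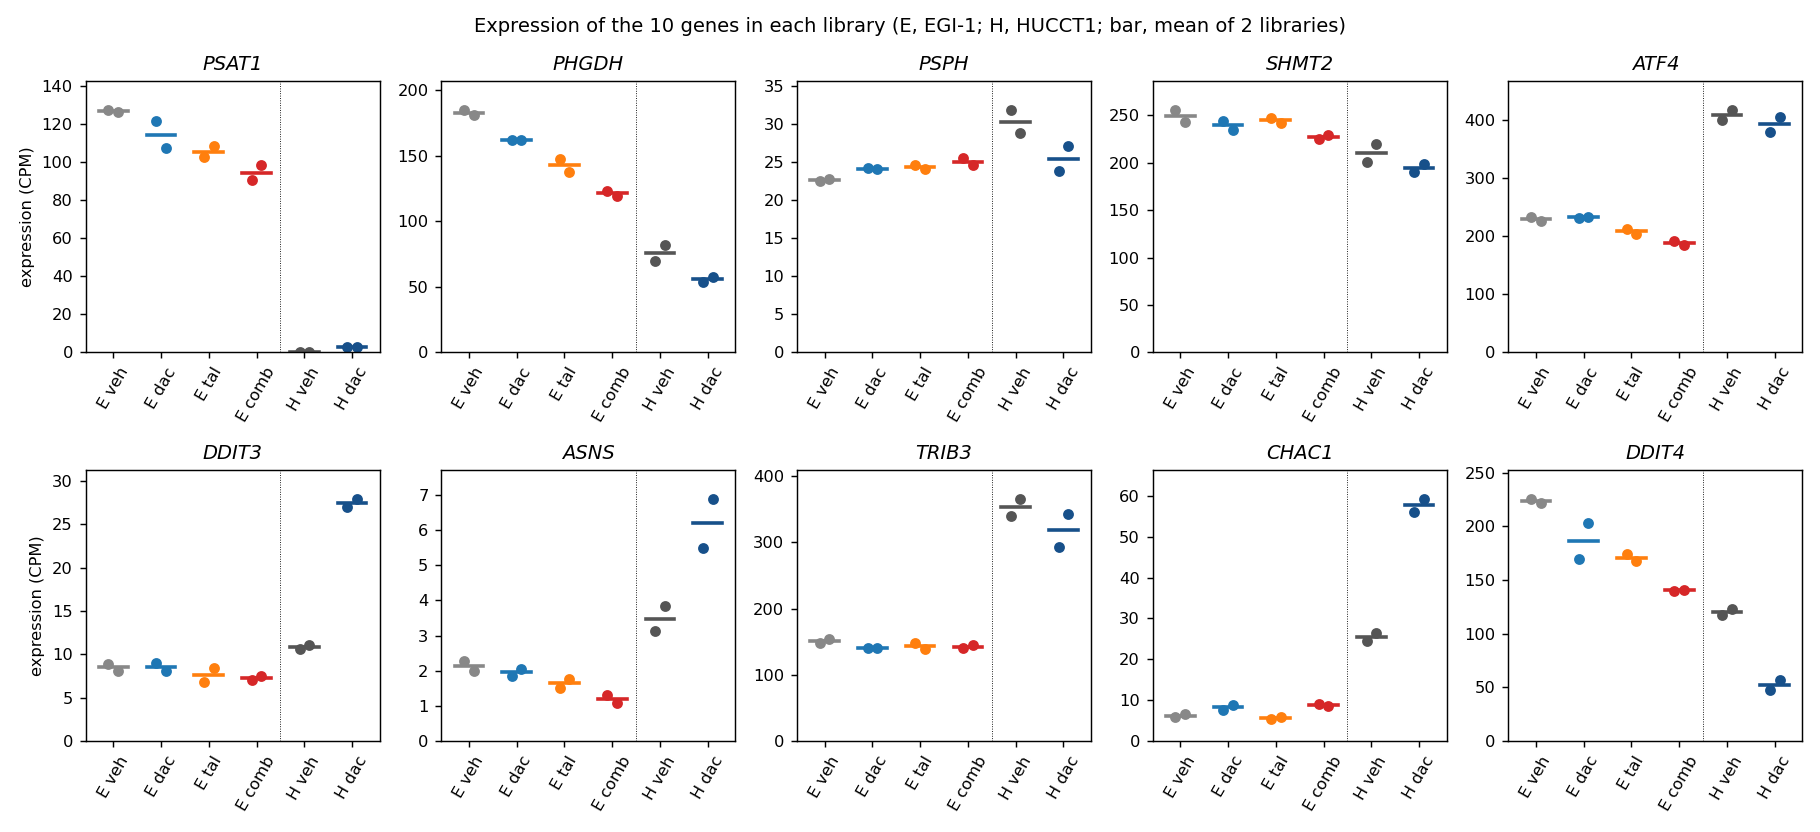
Expression of each gene in CPM on a linear axis from 0, for each library (points) and the mean of 2 libraries (bars). E is EGI-1, H is HUCCT1, veh is vehicle, dac is decitabine, tal is talazoparib and comb is both drugs. PSAT1 sits near 127 CPM in EGI-1 vehicle and at 0 in HUCCT1 vehicle, while DDIT3 and CHAC1 stand highest in HUCCT1 with decitabine.

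PSAT1, the aminotransferase of the serine pathway, is described first because it divided the lines. It had 3875 and 3502 counts in the EGI-1 vehicle libraries and 0 counts in both HUCCT1 vehicle libraries. With decitabine, the HUCCT1 libraries had 85 and 82 counts, or 2.71 ± 0.082 CPM (SD, n = 2). Both treated libraries were thus above both untreated ones, at a level far under any EGI-1 library. Against a floor of 3 counts in each vehicle library, PSAT1 was at least 28.6-fold higher with decitabine in HUCCT1 and at least 1540-fold higher in EGI-1 vehicle than in HUCCT1 vehicle, both on library totals without TMM factors. On the same library totals EGI-1 vehicle was 53.8-fold above HUCCT1 with decitabine. The gene was listed for this pattern and passed the filter on low counts in HUCCT1 only through the treated libraries, so no test is given, and it is left out of every count of genes that involves HUCCT1 vehicle. Its 4 annotated pseudogenes had at most 4 counts in any library, and the deposited notes do not state how reads matching several places were counted.

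In EGI-1 cells the serine synthesis genes did not move together. PSAT1 was at 127.2 and 126.0 CPM with vehicle, 121.6 and 107.1 with decitabine, 102.5 and 108.1 with talazoparib, and 90.45 and 98.25 with the combination. PHGDH, the dehydrogenase of the first step, given per kilobase of its long annotated exons, was at 20.11 and 19.68 CPM per kb with vehicle, 17.64 and 17.60 with decitabine, and 13.43 and 12.98 with the combination, and with talazoparib it was at 147.5 and 137.8 CPM, or 15.5 ± 0.74 CPM per kb. For both genes every treated library was under both vehicle libraries, and the combination libraries were the lowest. PSPH, the phosphatase of the last step, was at 22.49 and 22.81 CPM with vehicle and at 25.54 and 24.59 with the combination, a difference in the other direction that did not pass the test. SHMT2 was at 255.7 and 242.9 CPM with vehicle and 225.7 and 229.1 with the combination, and did not pass the test either, although it did in 4 of 15 alternatives, namely with upper-quartile scaling, with only the libraries of both arms, and without either decitabine library (edgeR adjusted p between 0.0333 and 0.0467).

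With decitabine alone in EGI-1, 0 of the 10 genes passed an adjusted p of 0.05 in the quasi-likelihood test of edgeR, adjusted over 22406 genes by the Benjamini-Hochberg method, where 0.544% of all genes tested did (0.518% higher and 0.0268% lower). Without adjustment 3 of the 10 were under 0.05, as were 2048 of the 22406 genes tested. The 3 were PHGDH at a log2 fold change of -0.17 (edgeR adjusted p = 0.317), CHAC1 at 0.43 (adjusted p = 0.256) and DDIT4 at -0.26 (adjusted p = 0.148). DESeq2 also called 0 of 10. DDIT4 passed the threshold in 2 of 15 alternatives, namely without the filter on low counts and without decitabine replicate 2. Its decitabine libraries were at 170.0 and 203.2 CPM, and without decitabine replicate 2 its log2 fold change was -0.39.

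Talazoparib alone lowered 3 of the 10 genes in EGI-1 and raised none, where 4.12% of all genes tested were called, 1.29% lower and 2.83% higher. PHGDH fell by 0.36 on the log2 scale (standard error 0.0595, edgeR adjusted p = 0.00152), DDIT4 by 0.39 (standard error 0.0706, adjusted p = 0.00317) and PSAT1 by 0.26 (standard error 0.0708, adjusted p = 0.0444). These calls were sensitive to single libraries. The count was 0 without vehicle replicate 1 and 1 (PHGDH) without vehicle replicate 2 or talazoparib replicate 2, and PSAT1 also lost its call without talazoparib replicate 1 (edgeR adjusted p between 0.0973 and 0.315 over these settings). The other 7 genes had log2 fold changes between -0.36 for ASNS and 0.11 for PSPH.

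The combination called 6 of the 10 genes in EGI-1 against the same vehicle libraries. Of these, 5 were lower and 1 was higher, where 18.7% of all genes tested were called, 7.61% lower and 11.1% higher. The median log2 fold change of the 10 was -0.26, beside -0.02 over all genes tested. PHGDH fell by 0.60 on the log2 scale (standard error 0.0599, edgeR adjusted p = 1.77e-06), DDIT4 by 0.68 (standard error 0.0711, adjusted p = 2.89e-06) and PSAT1 by 0.43 (standard error 0.0712, adjusted p = 0.000345). ATF4 mRNA was at 232.1 and 226.3 CPM with vehicle and at 191.8 and 184.5 CPM with the combination, and fell by 0.29 (standard error 0.056, adjusted p = 0.00125). For these 4 genes the 2 combination libraries lay under all 6 other EGI-1 libraries. The 4 were already called, and the share of all genes whose libraries separate was not counted, here or in the other comparisons.

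ASNS fell and CHAC1 rose in the combination, both from low counts. ASNS had 69 and 55 counts with vehicle, 56 and 56 with decitabine, 37 and 62 with talazoparib, and 32 and 33 with the combination, which is -0.84 against vehicle on the log2 scale (standard error 0.253, edgeR adjusted p = 0.0272). CHAC1, which degrades glutathione, had 176 and 183 counts with vehicle, 230 and 243 with decitabine, 132 and 202 with talazoparib, and 220 and 258 with the combination, which is 0.49 on that scale (standard error 0.139, adjusted p = 0.0193). The CHAC1 libraries with decitabine, alone or combined, lay above both vehicle and both talazoparib libraries in CPM. Neither call held when any vehicle or combination library was left out, with adjusted p between 0.055 and 0.194 for ASNS and between 0.0592 and 0.208 for CHAC1, and ASNS also missed the threshold in DESeq2 (adjusted p = 0.105). DDIT3 at -0.23, TRIB3 at -0.09, PSPH at 0.14 and SHMT2 at -0.14 on the log2 scale did not pass the test.

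Without combination replicate 2, the library with T cell transcripts, 4 of the 10 genes were lower and 0 higher than in vehicle, where 10.7% of all genes tested were called in either direction. PSAT1 was then lower by a log2 fold change of -0.49 (edgeR adjusted p = 0.00166), PHGDH by -0.57 (adjusted p = 0.000126), DDIT4 by -0.68 (adjusted p = 0.000173) and ATF4 by -0.26 (adjusted p = 0.0264). The remaining combination library was assumed to vary like the other groups. ASNS at -0.70 and CHAC1 at 0.54 kept their direction but not their call.

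**Figure D2:**
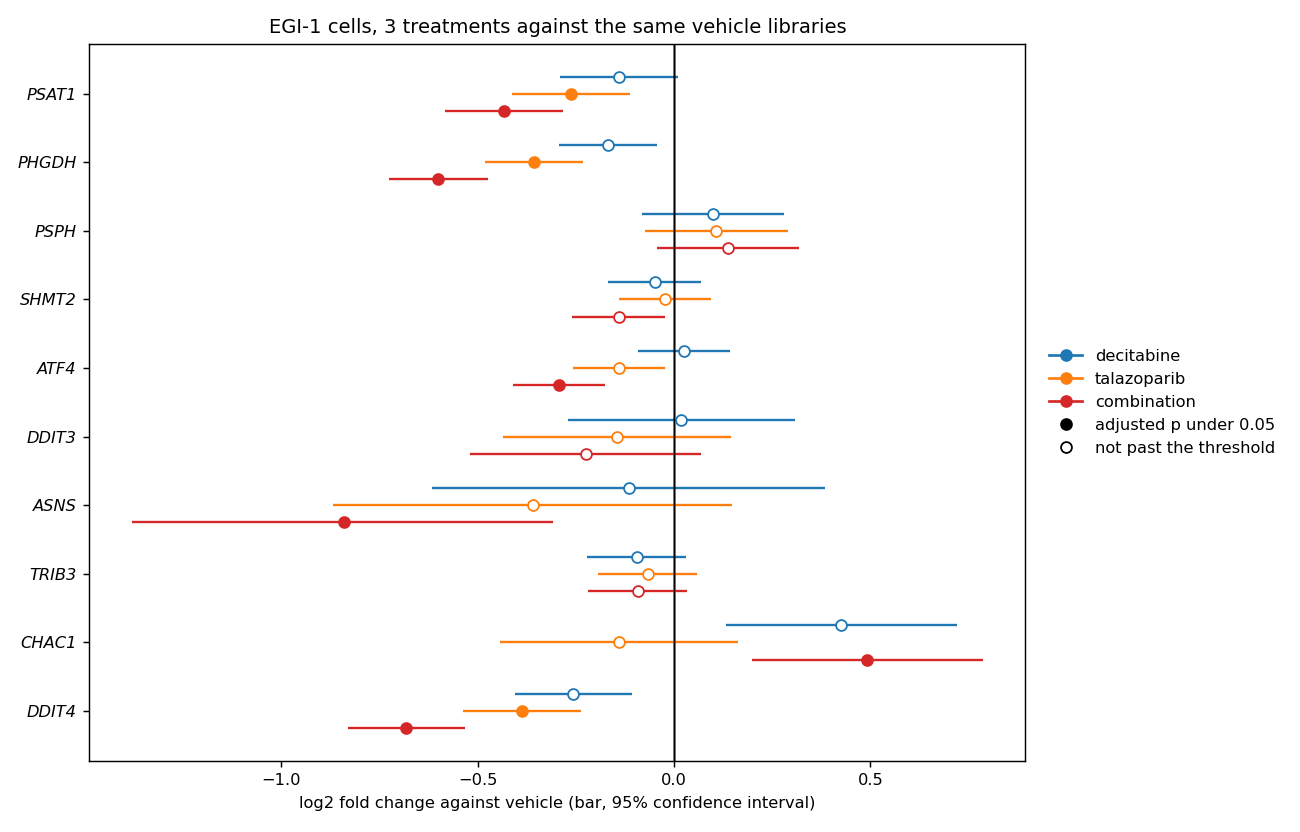
Log2 fold change of each gene in EGI-1 against the same 2 vehicle libraries, with 95% confidence intervals from the edgeR fit. Filled points have an adjusted p under 0.05, and the combination (red) is filled for 6 genes, 5 to the left of 0 and CHAC1 to the right.

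Against decitabine alone, the combination was lower for 4 of the 10 genes and higher for none, where 7.68% of all genes tested were called, 3.26% lower and 4.42% higher. The log2 fold changes were -0.43 for PHGDH (edgeR adjusted p = 0.000185), -0.42 for DDIT4 (adjusted p = 0.000983), -0.32 for ATF4 (adjusted p = 0.00157) and -0.29 for PSAT1 (adjusted p = 0.0164). Without combination replicate 2 the log2 fold changes were -0.40 for PHGDH, -0.42 for DDIT4, -0.29 for ATF4 and -0.35 for PSAT1. PSAT1 lost its call without decitabine replicate 1 or combination replicate 1. A fit of only the libraries of both arms did not call PSAT1 either (edgeR adjusted p = 0.0764). Over the fits lacking 1 library, its log2 fold change lay between -0.37 and -0.20. Against talazoparib alone, PHGDH at -0.24 (edgeR adjusted p = 0.0444) and DDIT4 at -0.29 (adjusted p = 0.041) were lower and CHAC1 at 0.63 (adjusted p = 0.0255) was higher, where 1.92% of all genes tested were called, 0.567% lower and 1.36% higher. These 3 calls were fragile, because the count was 0 when any of the 6 vehicle, talazoparib or combination libraries was left out. When the combination was tested against the added log2 effects of both drugs, 0 of 10 genes passed the threshold, where 0.161% of all genes tested did (0.00893% above the sum and 0.152% below it). ATF4 was the 1 gene of the 10 with an unadjusted p under 0.05 there, as 757 of the 22406 genes tested had. Its departure was -0.18 with a 95% interval from -0.345 to -0.0112, and DESeq2 gave 0 calls too. Leaving out combination replicate 2 also gave 0 calls, where 0.136% of all genes tested were called, and ATF4 was then at -0.14 with an interval from -0.338 to 0.0503.

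Decitabine at 1 µM in HUCCT1 cells raised some of the genes and lowered others. Of the 9 genes other than PSAT1, 3 were higher and 2 lower than vehicle at an adjusted p of 0.05, where 33.5% of the 22479 genes tested were called, 19.6% higher and 13.9% lower. DDIT3, the proapoptotic factor also called CHOP, had 322 and 334 counts with vehicle and 864 and 826 with decitabine, which is 10.8 ± 0.30 against 27.5 ± 0.65 CPM. CHAC1 had 743 and 801 counts with vehicle and 1794 and 1755 with decitabine, or 25.5 ± 1.4 against 57.7 ± 2.3 CPM. ASNS had 95 and 116 counts with vehicle and 176 and 204 with decitabine. For these 3 genes both treated libraries stood above both vehicle libraries. The 3 were already called, and the share of all genes whose libraries separate was not counted. The log2 fold changes were 1.33 for DDIT3 (standard error 0.132, edgeR adjusted p = 1.28e-08), 1.17 for CHAC1 (standard error 0.117, adjusted p = 1.55e-08) and 0.82 for ASNS (standard error 0.205, adjusted p = 0.00286).

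DDIT4 went the other way in HUCCT1. It was at 117.3 and 123.5 CPM with vehicle and 47.9 and 56.64 CPM with decitabine, and fell by 1.21 on the log2 scale (standard error 0.114, edgeR adjusted p = 4.96e-09). PHGDH was at 69.56 and 81.93 CPM with vehicle and 53.56 and 57.62 CPM with decitabine, and fell by 0.46 (standard error 0.114, adjusted p = 0.00274). The treated libraries of both genes, which were already called, lay under the vehicle libraries. ATF4 mRNA was at 399.6 and 416.5 CPM with vehicle and 378.1 and 405.4 CPM with decitabine, so its groups overlapped, and its log2 fold change of -0.07 had a 95% interval from -0.283 to 0.145. TRIB3 at -0.16, SHMT2 at -0.12 and PSPH at -0.26 did not pass the test either. With a block by the replicate number in the titles, TRIB3 (edgeR adjusted p = 0.0241) and PSPH (adjusted p = 0.0108) did pass it, although the labels do not say that the number pairs the libraries. Without vehicle replicate 2 PHGDH missed the threshold (adjusted p = 0.0522), and without decitabine replicate 2 ASNS did (adjusted p = 0.052), while DDIT3, CHAC1 and DDIT4 kept their calls in all settings tried.

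Some counts of these genes may hold reads of neighbours, because it is not stated whether reads were counted by strand. Counts may also lack reads shared with neighbours, because it is not stated how reads that fit several genes were counted. The part of such reads in the results was not tested. On chromosome 12, DDIT3 (57516588 to 57521737, minus strand) shares exonic positions with MARS1 and MBD6 on the plus strand, which had 5207 to 8217 and 1536 to 3566 counts per library. A protein-coding gene on the strand of DDIT3 also shares exonic positions with it and had 0 counts in every library. With decitabine in HUCCT1 the log2 fold change was -0.15 for MARS1, the methionyl-tRNA synthetase (edgeR adjusted p = 0.282), and -0.21 for MBD6 (adjusted p = 0.199). In the EGI-1 combination, where DDIT3 was at -0.23, MARS1 was at -0.31 (adjusted p = 0.000795) and MBD6 at -0.24 (adjusted p = 0.0287). SHMT2 (57229573 to 57234935, plus strand, same chromosome) overlaps NDUFA4L2, which had 24 to 101 counts, and ASNS (chromosome 7, 97851677 to 97872542, minus strand) overlaps a long noncoding RNA on its own strand with 7 to 28 counts. PSAT1 spans 78297125 to 78330093 on the plus strand of chromosome 9 and CHAC1 40952962 to 40956512 on the plus strand of chromosome 15 (GENCODE 44, GRCh38), and neither overlaps another annotated gene.

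The same drug was compared between the lines, although the doses were 0.5 µM in EGI-1 and 1 µM in HUCCT1, and line, culture medium and sequencing lane cannot be told apart. The difference between the decitabine effects passed the threshold for 4 of the 9 genes, 3 higher and 1 lower in HUCCT1, where 15.9% of the 25096 genes tested were called, 8.74% higher and 7.2% lower. On the log2 scale, DDIT3 differed by 1.33 (standard error 0.178, edgeR adjusted p = 1.63e-05), CHAC1 by 0.76 (standard error 0.164, adjusted p = 0.00251), ASNS by 0.95 (standard error 0.306, adjusted p = 0.0379) and DDIT4 by -0.94 (standard error 0.126, adjusted p = 1.54e-05). The ASNS change in EGI-1 itself, -0.11 on the log2 scale, had the other sign and did not pass the test. The ASNS difference lost its call when any of 6 of the 8 vehicle and decitabine libraries was left out (adjusted p between 0.0623 and 0.179) in DESeq2 (adjusted p = 0.107) and when genes with low counts were kept (adjusted p = 0.0847). PHGDH, whose decitabine libraries lay under the vehicle libraries in both lines, differed by -0.27 with an adjusted p of 0.125 in that edgeR test, and by -0.40 (adjusted p = 0.0192) without HUCCT1 vehicle replicate 1.

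**Figure D3:**
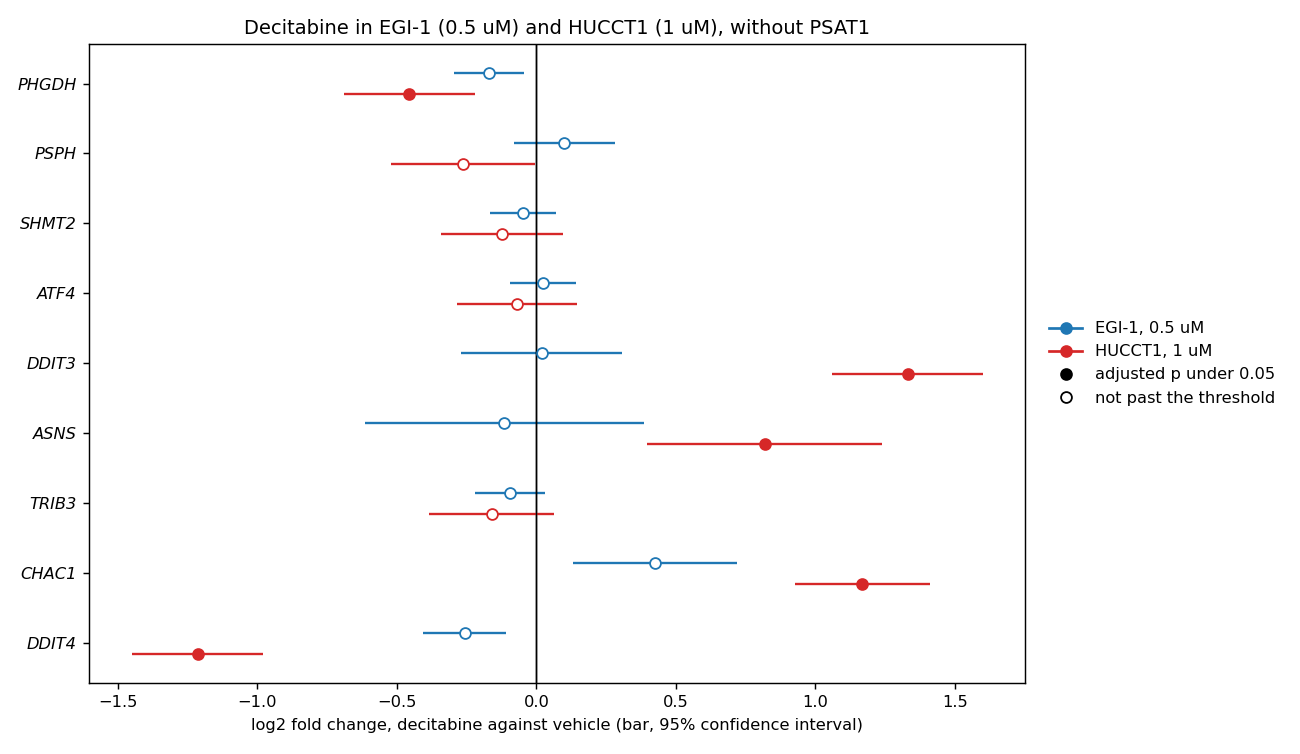
Log2 fold change with decitabine in EGI-1 (blue, 0.5 µM) and HUCCT1 (red, 1 µM) for the 9 genes other than PSAT1, with 95% confidence intervals from the edgeR fit of each line. DDIT3, ASNS and CHAC1 lie right of 0 in HUCCT1 and DDIT4 and PHGDH left of it, and no EGI-1 point is filled.

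Before treatment, all 9 genes other than PSAT1 differed between the lines, where 55.8% of all genes tested did (28.5% higher and 27.3% lower in HUCCT1). HUCCT1 vehicle was higher for CHAC1 by a log2 fold change of 2.05 (standard error 0.119), TRIB3 by 1.22 (standard error 0.0799), ATF4 by 0.83 (standard error 0.0697), ASNS by 0.71 (standard error 0.218), PSPH by 0.42 (standard error 0.0982) and DDIT3 by 0.35 (standard error 0.128), with edgeR adjusted p between 2.89e-12 and 0.0254. It was lower for PHGDH at -1.27 (standard error 0.0825), DDIT4 at -0.90 (standard error 0.0884) and SHMT2 at -0.25 (standard error 0.0714), with adjusted p between 1.9e-11 and 0.00584. CHAC1 already stood at 24.49 and 26.48 CPM in HUCCT1 vehicle, above all 8 EGI-1 libraries, which lay between 5.381 and 8.992 CPM. The calls of DDIT3, ASNS and SHMT2 were each lost when 1 of some vehicle libraries was left out. These were EGI-1 replicates 1 and 2 and HUCCT1 replicate 2 for DDIT3 (edgeR adjusted p between 0.0623 and 0.177), EGI-1 replicate 2 and HUCCT1 replicate 2 for ASNS (adjusted p of 0.0779 and 0.0919), and replicate 1 of either line for SHMT2 (adjusted p of 0.0631 and 0.0683). DDIT3 also lost its call with upper-quartile scaling (adjusted p = 0.134), and with the block by title number both DDIT3 (adjusted p = 0.0714) and ASNS (adjusted p = 0.0751) did.

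Related genes were read from 6 lists written from general knowledge, each described by counts and medians. For the EGI-1 combination these are to be read beside 11.1% higher and 7.61% lower and a median log2 fold change of -0.02 over all genes tested, and without combination replicate 2 beside 6.88% higher and 3.85% lower. For HUCCT1 with decitabine the values over all genes are 19.6% higher, 13.9% lower and a median of 0.00. In the EGI-1 combination, the amino acid transport and synthesis genes, which include transporters and tRNA synthetases, had 12 of 26 lower and 0 higher than vehicle, with a median log2 fold change of -0.19. Without combination replicate 2 the count was 9 of 26 lower and 0 higher, again with a median of -0.19. SLC6A9, a glycine transporter, went from 16.1 ± 0.64 to 7.66 ± 0.50 CPM and fell by 1.08 on the log2 scale (edgeR adjusted p = 1.26e-05). SLC7A11, the cystine and glutamate exchanger, went from 52.4 ± 2.5 to 29.4 ± 3.3 CPM and fell by 0.84 (adjusted p = 5.32e-06), and XPOT, which exports tRNA from the nucleus, fell by 0.39 (adjusted p = 0.00138). These genes stayed called when that library was left out, at -1.01, -0.95 and -0.45. In HUCCT1 with decitabine the same list had 3 of 26 higher and 0 lower, with a median of 0.05, so that fewer of its genes were called than of all genes tested. These 3 were SLC7A5 and SLC3A2, the light and heavy chain of a leucine transporter, at log2 fold changes of 0.62 and 0.53, and the arginine transporter SLC7A1 at 0.41.

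Genes of serine uptake, glycine metabolism and folate-bound carbon units were mixed in both lines. In the EGI-1 combination 2 of 27 were higher and 4 lower, with SDSL, which is related to serine dehydratase, at a log2 fold change of 0.88, the mitochondrial folate enzyme MTHFD1L at -0.46 and the serine carrier family member SFXN3 at 0.36, and the median was -0.06. Without combination replicate 2 the count was 2 higher and 2 lower with a median of -0.03, and SDSL at 1.00, MTHFD1L at -0.49 and SFXN3 at 0.33 stayed called. In HUCCT1 with decitabine 6 of 28 were higher and 7 lower, with a median of -0.12. GLDC, of the glycine cleavage system, had 36 to 50 counts with vehicle and 277 to 340 with decitabine and rose by a log2 fold change of 2.80 (edgeR adjusted p = 1.38e-10). CTH, which makes cysteine, rose by 0.74 (adjusted p = 9.53e-05). CBS, which joins serine to homocysteine, had 0 to 3 counts with vehicle and 16 to 17 with decitabine. It passed the filter on low counts only through the treated libraries, so no test is given. The 6 genes counted as higher include it. The value of CBS is also uncertain because these counts are low and a near-identical copy of the gene is known.

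The list of transcription factors and stress effectors linked to ATF4 had 10 of 18 genes higher and 1 lower in HUCCT1 with decitabine, with a median log2 fold change of 0.50. STC2, a secreted glycoprotein, had 99 to 102 counts with vehicle and 8043 to 8594 with decitabine, or 3.32 ± 0.063 against 270.0 ± 2.3 CPM, and rose by 6.34 on the log2 scale (standard error 0.143, edgeR adjusted p = 5.5e-21). CEBPB, a partner of ATF4 and DDIT3 on DNA, went from 53.9 ± 8.1 to 129 ± 29 CPM and rose by 1.25 (adjusted p = 9.78e-08). INHBE had 3 to 13 counts with vehicle and 28 to 37 with decitabine. It passed the filter on low counts only through the treated libraries, so no test is given. The 10 genes counted as higher include it. In the EGI-1 combination the list had 5 of 17 higher and 3 lower, with ATF5, a paralogue of ATF4, at 0.52, SESN2, a leucine sensor, at 0.43 and the peptide hormone ADM2 at -0.40, and a median of -0.01. Without combination replicate 2 these counts were 2 and 3 and the median 0.01, with ATF5 at 0.57 and ADM2 at -0.52 still called and SESN2 at 0.42 no longer (edgeR adjusted p = 0.0779).

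Endoplasmic reticulum stress genes of the XBP1 and ATF6 arms had 12 of 18 higher and 0 lower in HUCCT1 with decitabine, with a median log2 fold change of 0.34. ERN1, the sensor kinase and nuclease that splices XBP1 mRNA, went from 65.7 ± 1.6 to 175 ± 0.73 CPM (log2 fold change 1.40, edgeR adjusted p = 1.26e-10), the chaperone DNAJB9 from 12.6 ± 0.12 to 29.2 ± 0.79 CPM (1.20, adjusted p = 4.92e-08), and HERPUD1, of protein degradation at this membrane, from 63.1 ± 0.79 to 104 ± 7.5 CPM (0.71, adjusted p = 1.3e-05). In the EGI-1 combination the list had 1 higher, ERN1 at 0.24, and 2 lower, XBP1 at -0.25 and the chaperone HSPA5 at -0.22, with a median of -0.01. Leaving out combination replicate 2 gave 0 higher and 1 lower, HSPA5 at -0.25, while ERN1 at 0.28 (edgeR adjusted p = 0.0503) and XBP1 at -0.25 (adjusted p = 0.0538) missed the threshold. The difference between the decitabine effects was higher in HUCCT1 for 11 of these 18 genes and lower for 0, where 8.74% of all genes tested were higher and 7.2% lower.

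The kinases and eIF2 factors upstream of ATF4 were mixed. In HUCCT1 with decitabine 3 of 18 were higher and 2 lower, near the 33.5% called in either direction over all genes, with a median of -0.17, and with the RNA-sensing kinase EIF2AK2 at a log2 fold change of -0.75 (edgeR adjusted p = 1.14e-05), the endoplasmic reticulum kinase EIF2AK3 at 0.42 (adjusted p = 0.0133) and PPP1R15B, a phosphatase subunit for eIF2, at 0.36 (adjusted p = 0.00947). In the EGI-1 combination 1 was higher, the amino acid sensing kinase EIF2AK4 at 0.34, and 1 lower, the mitochondrial protease OMA1 at -0.69, from 6.16 ± 0.72 to 3.87 ± 0.49 CPM, of 18 genes with 9 above 0. Without combination replicate 2 the counts were 1, EIF2AK4 at 0.29, and 0, with OMA1 at -0.55 (edgeR adjusted p = 0.171). Glutathione genes had 2 of 10 higher and 2 lower in the EGI-1 combination, with OPLAH at 0.55, the reductase GSR at -0.40 and the synthetase GSS at 0.34, and a median of 0.12. The counts were 2 and 1 without that library, with OPLAH at 0.65, GSR at -0.44 and GSS at 0.35 all called. In HUCCT1 with decitabine they had 1 higher, GCLC of the first synthesis step at 0.42, and 2 lower, GGCT at -0.54 and the peroxidase GPX1 at -0.36, with a median of 0.04. Decitabine alone in EGI-1 called 0 genes of these 6 lists, where 0.544% of all genes tested were called. Talazoparib alone called 3 higher and 4 lower, where 2.83% of all genes tested were higher and 1.29% lower.

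The genes whose pattern was most like that of PSAT1 and CHAC1 were found among 13415 genes whose log2 CPM averaged 1 or more, by the root mean square difference of centred log2 CPM over the 6 condition means. This is a description without a test, and most of it is set by the difference between the lines. For PSAT1 the nearest were IGF2BP1 at 0.261, ZNF518B at 0.395, CELF2 at 0.634, H3C8 at 0.642 and CD81 at 0.81 log2 units. For CHAC1 they were PRICKLE2 at 0.152, TP53INP2 at 0.164, COX6B2 at 0.17, and CCNI2 and ENO2 at 0.179 log2 units.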

How the data were processed

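RNA was sequenced from 12 libraries of 2 cell lines, and the authors deposited a single table of raw counts per gene for 60651 Ensembl genes, with no normalization and with whole numbers throughout. Total counts per library lay between 23139065 and 34965627. The submitters' processing notes name fastp, Trim Galore, HISAT2, featureCounts and GRCh38, while the paper's methods name STAR and RSEM and describe EGI-1 alone, so conditions come from the labels. The layout is that of featureCounts. The paper's methods name a stranded library kit, but whether reads were counted by strand, how reads with several matches were handled and the annotation release are not given in the sources used here. The labels and the paper's methods give 200 nM talazoparib, whereas the names of the talazoparib libraries carry a lower number without a unit.

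From these counts, genes were filtered with filterByExpr by group and tested in edgeR 4.0.16 (R 4.3.3) with TMM scaling and a robust quasi-likelihood fit, two-sided and adjusted by the Benjamini-Hochberg method, with a call at an adjusted p under 0.05. The 8 EGI-1 libraries were fitted together (22406 genes), the 4 HUCCT1 libraries apart (22479 genes), and all 12 for differences between lines (25096 genes). An exact two-sided permutation test of 2 against 2 libraries reaches p = 0.333 at best. CPM uses TMM factors of the fit of all 12 libraries, between 0.866 and 1.06. The scripts were tested on simulated data. Alternatives were DESeq2 1.42.0, its size factors and upper-quartile factors in edgeR, no filter, a block by replicate number or by the series in the library names, a fit of only the arms compared, and leaving out each library. The list counts and list genes without combination replicate 2 were added after the data were seen. Replicates differed by more than counting noise, with a chi-square per gene between 2.56 and 11.1, so none was counted as a repeat.

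The 10 genes and all lists were chosen with earlier results of these data known, and the T cell markers after PTPRC had been seen. All 145 listed genes were matched. Named genes are the 10 genes in every comparison, and from each list the 3 called genes with the largest absolute change in the EGI-1 combination and in HUCCT1 with decitabine, and the 5 genes nearest in pattern to PSAT1 and to CHAC1. MARS1, MBD6 and the T cell genes were named after their values were seen. Promoter windows are RefSeq's, on GRCh38.p14, and exon lengths are GENCODE 44 unions.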

Additional observations from a re-analysis of the deposited data

Results flagged for a closer look

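The effect of decitabine differed between HUCCT1 and EGI-1 for 4 of 9 genes in the interaction test of edgeR over 25096 genes, where 15.9% of all genes were called, at 1 µM and 0.5 µM. DDIT3 differed by 1.331 on the log2 scale, from 10.8 ± 0.30 to 27.5 ± 0.65 CPM in HUCCT1 and from 8.50 ± 0.57 to 8.56 ± 0.64 CPM in EGI-1. CHAC1 differed by 0.7595, with 25.5 ± 1.4 and 57.7 ± 2.3 CPM in HUCCT1 and 6.18 ± 0.57 and 8.26 ± 0.87 CPM in EGI-1. ASNS differed by 0.9511, with 3.48 ± 0.50 and 6.20 ± 0.99 CPM in HUCCT1 and 2.12 ± 0.20 and 1.95 ± 0.13 CPM in EGI-1, and lost its call in 8 of 17 alternatives (edgeR adjusted p up to 0.179). DDIT4 differed by -0.9407, with 120 ± 4.4 and 52.3 ± 6.2 CPM in HUCCT1 and 224 ± 2.6 and 187 ± 23 CPM in EGI-1. Dose, line, medium and sequencing lane cannot be told apart in these differences.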

How the results depend on the processing

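Over 87 changes of single genes tested, 34 passed the threshold, and their 515 values under the alternatives kept the sign, 449 with and 66 without the call. Of 769 values for the other changes, 9 crossed the threshold and 17 had another sign, none of those past the threshold. The cause of these shifts was not tested. The count for the combination against talazoparib, 3 of 10, was 1 with DESeq2 size factors in edgeR, 1 with the block by replicate number in the titles and 1 with the block by series in the library names. The count for decitabine in EGI-1, 0, was 1 without the filter on low counts. With each library left out in turn, these counts ranged from 0 to 3 and from 0 to 1, and that for talazoparib from 0 to 3.

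The labels do not say whether the replicate numbers pair the libraries. In EGI-1 these numbers cross the series in the library names. Vehicle replicate 1 is of series A-D, while replicate 1 of each treated condition is of series B1-B4. Deviations of libraries with the same number correlated between -0.27 and 0.21 in EGI-1, and the single HUCCT1 pair at 0.27. With 2 libraries per group, these correlations cannot show whether the libraries are paired. Under the block by title number PSAT1 with talazoparib was at -0.26 (edgeR adjusted p = 0.105), PHGDH and DDIT4 in the combination against talazoparib at -0.24 and -0.29, and PSPH and TRIB3 in HUCCT1 passed the threshold at -0.26 and -0.16.

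Signs turned for values near 0. With upper-quartile factors ATF4 and DDIT3 with decitabine in EGI-1 were at -0.0064 and -0.013, and TRIB3 in the combination against decitabine at -0.0031 (-0.0048 without the filter). With 1 library left out, log2 values ranged from -0.059 to 0.087 for DDIT3 with decitabine, -0.063 to 0.011 for SHMT2 with talazoparib, -0.039 to 0.18 for CHAC1 and -0.017 to 0.024 for TRIB3 in the combination against decitabine, -0.073 to 0.027 for TRIB3 and -0.21 to 0.084 for DDIT3 against talazoparib, -0.11 to 0.068 for PSAT1, -0.16 to 0.10 for DDIT4 and -0.23 to 0.072 for DDIT3 in the departure from the sum, and -0.17 to 0.054 for TRIB3 in the difference between lines. The PSAT1 bound ranged from 28.2 to 29.1. ASNS in EGI-1 had 32 to 69 counts per library, and the standard error of its log2 change in the combination was 0.253.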
